A study of Mus musculus with 24 samples.

Results

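The guanylate-binding proteins (GBPs) are a family of large GTPases. Of their genes in the deposited table of 35770 mouse gene names, 10 are described here as the members of the family. They are Gbp2, Gbp2b, Gbp3, Gbp4, Gbp5, Gbp6, Gbp7, Gbp8, Gbp9 and Gbp10. The table also lists Gbp11, which is not among the members and not in the sums and shares of the family. The members were chosen by gene symbol. RNA was measured in 24 libraries of primary bone marrow-derived macrophages (BMDMs) from C57BL/6 mice, grown with M-CSF, with 3 libraries in each of 8 groups. The BMDMs had received control media or media conditioned (CM) by LL2 cells, which derive from the Lewis lung carcinoma of mice, for 24 h, and each medium was combined with vehicle or with 100 nM CDDO-Me, a synthetic triterpenoid that activates the transcription factor NRF2. CM came from WT, KEAP1 KO or NRF2 KO cancer cells after 48 h of conditioning and made up 75% of the culture medium. KEAP1 is the protein that holds NRF2 in check. The KO genes were edited in the cancer cells and not in the macrophages, so every macrophage was WT and the edits cannot be checked in these libraries. A single KO line stood for each edit, and differences between KO lines cannot be told apart from differences between clones. The groups are named by medium and treatment, from media/vehicle to NRF2 KO CM/CDDO-Me.

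GBPs bind and hydrolyse GTP, assemble on the vacuoles and membranes of intracellular microbes and help inflammasomes to respond to the exposed microbial products. In macrophages their genes are among the most strongly induced targets of interferon gamma, which signals through its receptor and the kinases JAK1 and JAK2. The gamma-activated site (GAS) and the interferon-stimulated response element (ISRE) are the DNA elements through which interferons act on their target genes, and IRF1 is among the factors that bind the ISRE.

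The genes lie in clusters on 2 chromosomes of GRCm39 (GENCODE annotation). Gbp5, Gbp7, Gbp3, Gbp2b and Gbp2 lie on the plus strand of chromosome 3, between 142199739 and 142343779. Gbp8, Gbp9, Gbp4, Gbp10 and Gbp6 lie on the minus strand of chromosome 5, between 105162016 and 105443751. The annotated spans of Gbp8, Gbp9 and Gbp4 overlap on the same strand. Promoter sequences of 5 genes, those of the chromosome 3 cluster, were found in the RefSeq table (GRCm38.p6), as 6 entries because Gbp3 has 2 start sites. Gbp4, Gbp6, Gbp8, Gbp9 and Gbp10 had no entry.

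The promoters are shown because the members' changes described below run together, and they were searched for the letters of both interferon elements. The ISRE core was searched on both strands as GAAA, any 2 bases and GAAA again, which on the other strand reads TTTC, any 2 bases and TTTC. The GAS was searched as TTCNNNGAA, which is its own reverse complement. Within the 250 bases before the start site, an ISRE core match was found in 5 of the 6 entries and in 5 of the 5 genes, against 2.98% of the 32851 promoters in the table. A GAS match was found for Gbp5 and Gbp7, against 7.02% of all promoters. Each of these ISRE core matches was on the minus strand, and the 2 matches of Gbp3 overlap each other. A match is a description of the letters and no evidence of binding. The stretches below hold the matches, in capitals, with their surroundings in lower case, 5′ to 3′ on the plus strand.

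Gbp2, chr3:142620594-142620623: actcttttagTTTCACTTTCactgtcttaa

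Gbp2b, chr3:142594700-142594729: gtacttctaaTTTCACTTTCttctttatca

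Gbp3, chr3:142559989-142560024: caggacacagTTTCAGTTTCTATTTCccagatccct

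Gbp7, chr3:142530220-142530302: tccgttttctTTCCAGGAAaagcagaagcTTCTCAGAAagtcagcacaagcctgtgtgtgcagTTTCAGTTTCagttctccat

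Gbp5, chr3:142496684-142496900: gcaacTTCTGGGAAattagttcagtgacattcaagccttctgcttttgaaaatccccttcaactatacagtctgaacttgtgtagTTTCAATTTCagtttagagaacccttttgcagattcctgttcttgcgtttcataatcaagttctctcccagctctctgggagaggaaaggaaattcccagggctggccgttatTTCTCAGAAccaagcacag

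Gbp2 and Gbp2b, neighbours on the chromosome, held the same 10 letters at the match, which ended 50 bases before the start site of Gbp2 and 128 bases before that of Gbp2b. In Gbp7 the ISRE core ended 44 bases before the start site, with GAS matches ending at 79 and 98 bases before it. In Gbp5 a GAS match ended 44 bases before the start site, and the ISRE core ended 156 bases before it.

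The deposited values are named as length-scaled TPM counts and were treated as TPM. TPM give each gene its length-corrected share of all transcripts in a library. Whether the values are corrected for gene length could not be checked. Comparisons of levels between genes, such as orders, shares and ranks, rest on it, while comparisons of a gene between groups do not. Each library's TPM sum to the same total by construction, and how many reads stand behind a value is unknown. The number of genes above 0 ranged from 15702 to 18993, with the fewest in both NRF2 KO CM replicate 3 libraries. For tests, the TPM were scaled between libraries, and the log2 of each value plus a pseudocount of 1 was fitted with limma for the 13661 genes that exceeded 1 TPM in 3 or more libraries. Fold changes are therefore on the log2(TPM + 1) scale, which understates changes of low genes, and adjusted p-values follow Benjamini-Hochberg over all genes tested. A gene is said to rise or fall where the adjusted p was under 0.05. Of the 10 members, 7 passed the filter in the other libraries alone, whereas Gbp2b, Gbp4 and Gbp10 passed only through the 6 libraries of WT and KEAP1 KO CM/CDDO-Me. These 3 had to differ there, so their levels in comparisons of these groups with the others are given as a description, without a p-value. In those comparisons, counts of calls are over the other 7 members. Counts over 10 members are given elsewhere. In the other 18 libraries Gbp2b, Gbp4 and Gbp10 were at 1.08 TPM or less, so the lack of a call for these 3 there says little.

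Macrophage identity was checked with markers of the cell types the culture could hold. The summed TPM of 9 macrophage markers lay between 15020 and 38490. Lymphocyte and NK markers summed to at most 2.02 TPM, neutrophil markers to at most 8.01 TPM, dendritic cell markers to at most 5.21 TPM, and epithelial or carcinoma markers to at most 4.72 TPM. Fibroblast markers summed to 161.9 to 2013 TPM, from 161.9 to 775.5 TPM in WT and KEAP1 KO CM/CDDO-Me and from 247.4 to 2013 TPM in the other groups. With CDDO-Me, the estimate of every listed fibroblast marker was below 0 in each CM. Dendritic cell markers summed to 2.59 to 5.21 TPM in WT and KEAP1 KO CM/CDDO-Me and to 0.679 to 1.63 TPM in the other groups. Within this list, the mean of Xcr1 was 0.0319 TPM in WT CM/vehicle and 3.86 TPM in WT CM/CDDO-Me. In KEAP1 KO CM it was 0.0713 and 2.075 TPM. The mean of Zbtb46 was instead lower with CDDO-Me, at 0.514 against 0.769 TPM in WT CM and 0.598 against 0.969 TPM in KEAP1 KO CM. The part of either marker list in the results below was not tested. In bulk RNA, fewer cells of a type and less RNA per cell cannot be told apart.

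To find whether the macrophages' GBP genes respond to CDDO-Me, and whether the medium matters, CDDO-Me was compared with vehicle within each medium. In BMDMs with WT CM or KEAP1 KO CM, every member was higher with CDDO-Me, at 91.8 to 5675 TPM, against levels from 0 (Gbp2b) to 17.5 TPM (Gbp2) with vehicle. In control media and in NRF2 KO CM, no member passed the test as reported, and some calls depended on the processing. The summed TPM of the 10 genes was 42.7 ± 19.2 (SD, n = 3) in WT CM/vehicle and 7858 ± 1013 in WT CM/CDDO-Me. It was 33.1 ± 11.0 in KEAP1 KO CM/vehicle and 7977 ± 994.4 in KEAP1 KO CM/CDDO-Me. The corresponding sums were 28.4 ± 1.99 and 30.9 ± 0.996 in control media with vehicle and with CDDO-Me, and 47.1 ± 16.8 and 42.8 ± 3.50 in NRF2 KO CM. The family took 0.70% to 0.908% of all TPM in the 6 libraries of WT and KEAP1 KO CM/CDDO-Me.

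**Figure D1:**
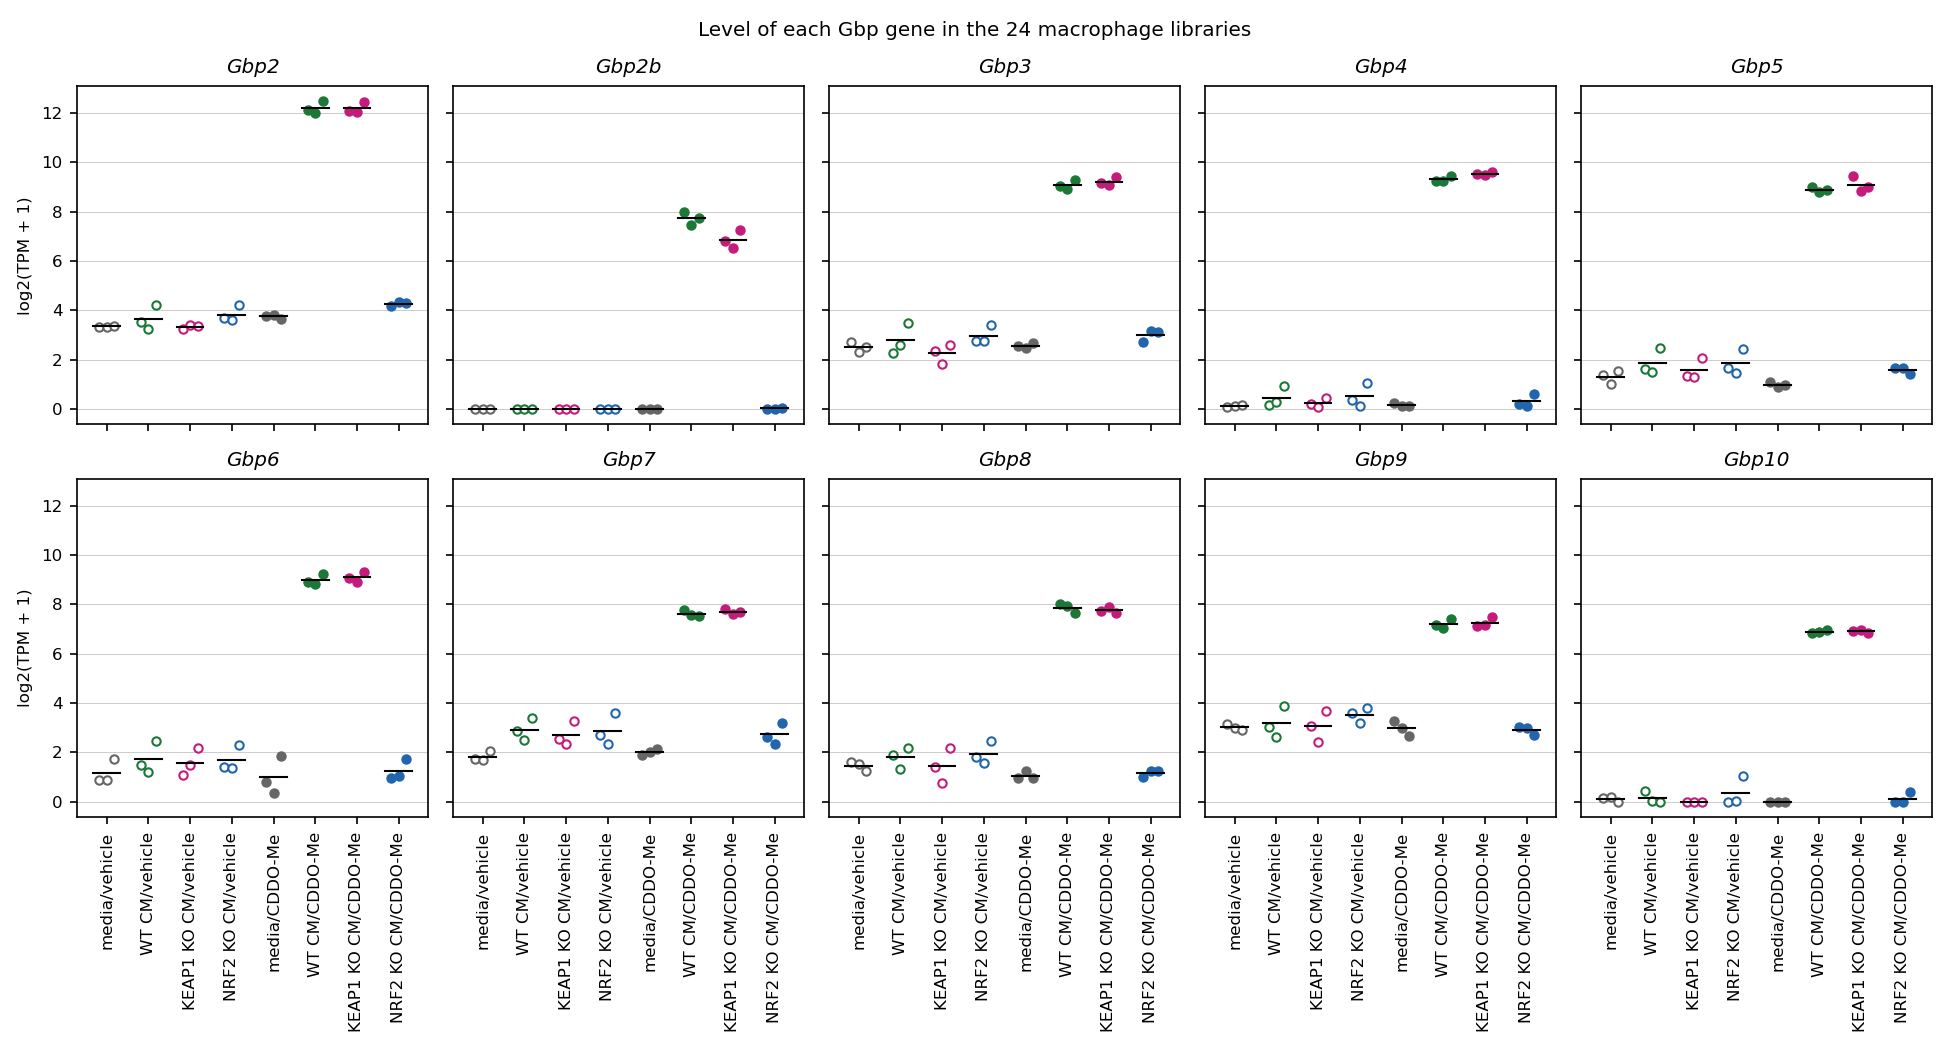
Level of each Gbp gene as log2(TPM + 1) in the 24 libraries, with 1 panel per gene and the 8 groups on the horizontal axis. Open points are vehicle libraries, filled points CDDO-Me libraries, grey marks media, green WT CM, magenta KEAP1 KO CM and blue NRF2 KO CM, and black lines are group means of 3 libraries. In every panel the 6 libraries of WT and KEAP1 KO CM/CDDO-Me sit above the other 18.

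Gbp2, a broadly expressed member that is recruited to pathogen vacuoles, had the highest level of the family. With WT CM it was at 10.6, 8.56 and 17.5 TPM under vehicle and at 4494, 4152 and 5675 TPM under CDDO-Me. In KEAP1 KO CM it was at 8.41, 9.63 and 9.42 TPM with vehicle and at 4356, 4174 and 5618 TPM with CDDO-Me. The groups were far apart, and replicate 3 was the highest of both CDDO-Me groups. The ratio of group means was 390.4 with WT CM and 515.2 with KEAP1 KO CM. The log2 fold change was 8.65 (SE 0.22, adjusted p = 1.58e-16) and 9.02 (SE 0.22, adjusted p = 7.46e-17), respectively. By mean TPM, Gbp2 ranked 8640 among all gene names in media/vehicle and 12 in both WT and KEAP1 KO CM/CDDO-Me.

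Gbp2b, known as Gbp1 in earlier mouse nomenclature, was listed at 0 in 16 of the 18 libraries outside WT and KEAP1 KO CM/CDDO-Me. The exceptions were 2 NRF2 KO CM/CDDO-Me libraries, at 0.0134 and 0.0445 TPM. It was at 252.9, 177.3 and 213.2 TPM in WT CM/CDDO-Me and at 111.1, 91.8 and 153.1 TPM in KEAP1 KO CM/CDDO-Me. No fold is given, since the vehicle libraries were listed at 0.

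Gbp3, the next gene along chromosome 3, was at 3.85, 5.12 and 10.2 TPM in WT CM/vehicle and at 528.9, 481.2 and 628.4 TPM in WT CM/CDDO-Me. With KEAP1 KO CM it moved from 4.12, 2.59 and 5.06 TPM to 569.0, 539.1 and 685.6 TPM. Its log2 fold change was 6.40 (SE 0.29, adjusted p = 1.32e-12) with WT CM and 7.11 (SE 0.29, adjusted p = 2.45e-13) with KEAP1 KO CM. The vehicle and CDDO-Me libraries did not overlap.

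Gbp5, a member linked to assembly of the NLRP3 inflammasome, was at 2.07, 1.86 and 4.57 TPM in WT CM/vehicle and at 516.8, 441.1 and 471.8 TPM in WT CM/CDDO-Me. In KEAP1 KO CM it was at 1.55, 1.44 and 3.23 TPM with vehicle and at 698.1, 458.0 and 510.6 TPM with CDDO-Me. Replicate 1 was the highest of both CDDO-Me groups, unlike Gbp2. The log2 fold change was 7.14 (SE 0.29, adjusted p = 3.45e-13) and 7.67 (SE 0.29, adjusted p = 1.03e-13).

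Gbp7, which has been linked to the oxidative and autophagic defence of macrophages, had the second smallest rise of the family. It was at 6.36, 4.74 and 9.45 TPM in WT CM/vehicle and at 216.4, 187.7 and 181.9 TPM in WT CM/CDDO-Me. In KEAP1 KO CM it was at 4.90, 4.05 and 8.56 TPM with vehicle and at 221.8, 195.4 and 204.7 TPM with CDDO-Me. The ratio of group means was 28.5 and 35.5, and the log2 fold change was 4.80 (SE 0.33, adjusted p = 8.06e-10) and 5.14 (SE 0.33, adjusted p = 3.04e-10).

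Among the chromosome 5 genes, Gbp4 had the largest fold change of the members that were above 0 in every library. It was at 0.107, 0.207 and 0.893 TPM in WT CM/vehicle and at 604.2, 606.6 and 703.1 TPM in WT CM/CDDO-Me. In KEAP1 KO CM it was at 0.138, 0.0688 and 0.373 TPM with vehicle and at 731.2, 714.9 and 778.1 TPM with CDDO-Me. The log2 fold change was 8.98 (SE 0.22) with WT CM and 9.40 (SE 0.22) with KEAP1 KO CM, and these values are reduced by the pseudocount.

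Gbp6 was at 1.80, 1.28 and 4.55 TPM in WT CM/vehicle and at 477.3, 457.5 and 608.2 TPM in WT CM/CDDO-Me. Its log2 fold change was 7.39 (SE 0.42, adjusted p = 4.84e-11) with WT CM and 7.67 (SE 0.42, adjusted p = 2.71e-11) with KEAP1 KO CM, where it was at 532.1, 482.5 and 642.0 TPM with CDDO-Me. Gbp10 was listed at 0 in 11 of the 18 libraries outside WT and KEAP1 KO CM/CDDO-Me. It was at 113.4, 115.6 and 123.9 TPM in WT CM/CDDO-Me and at 120.6, 123.0 and 114.1 TPM in KEAP1 KO CM/CDDO-Me. No fold is given for Gbp10.

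Gbp6 and Gbp10 share much of their sequence with each other and with genes that are not among the members. The division of reads among these genes, and so the levels of both, is uncertain. Of the distinct 31-base words in the GENCODE transcripts of Gbp10, 25.1% occurred in no other gene and 67.8% were shared with Gbp6. Of the words of Gbp6, 33.5% occurred in no other gene and 57.5% were shared with Gbp10. Words shared with genes outside the members were 64.7% for Gbp10 and 59.4% for Gbp6, and a word can be shared with both kinds. For the remaining members, between 75.1% (Gbp8) and 95.9% (Gbp2b) of the words were unique to the gene. Gbp2 and Gbp2b shared 4.26% of the words of Gbp2.

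Gbp8 and Gbp9, whose annotated spans overlap that of Gbp4, rose as well. Gbp8 was at 2.74, 1.52 and 3.49 TPM in WT CM/vehicle and at 258.7, 245.1 and 199.8 TPM in WT CM/CDDO-Me (log2 fold change 6.18, SE 0.30, adjusted p = 4.16e-12). Gbp9 was at 7.17, 5.17 and 13.9 TPM in WT CM/vehicle and at 141.5, 132.0 and 169.6 TPM in WT CM/CDDO-Me (log2 fold change 4.14, SE 0.31, adjusted p = 2.47e-09). With KEAP1 KO CM the log2 fold changes were 6.45 (SE 0.30, adjusted p = 2.15e-12) and 4.36 (SE 0.31, adjusted p = 1.11e-09). Gbp9 had the smallest fold change of the family with both media, and after Gbp2 the highest level in media/vehicle.

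In counts, 7 of 7 members that passed the filter without these libraries rose with CDDO-Me in WT CM, where 13.9% of all genes tested rose, and 7 of 7 in KEAP1 KO CM, where 14.5% rose. The vehicle and CDDO-Me libraries did not overlap for any of the 7 with either medium, against 53.5% of all genes tested with WT CM and 54.1% with KEAP1 KO CM. Their median log2 fold change was 6.40 with WT CM and 7.11 with KEAP1 KO CM, beside -0.03 and -0.02 over all genes.

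**Figure D2:**
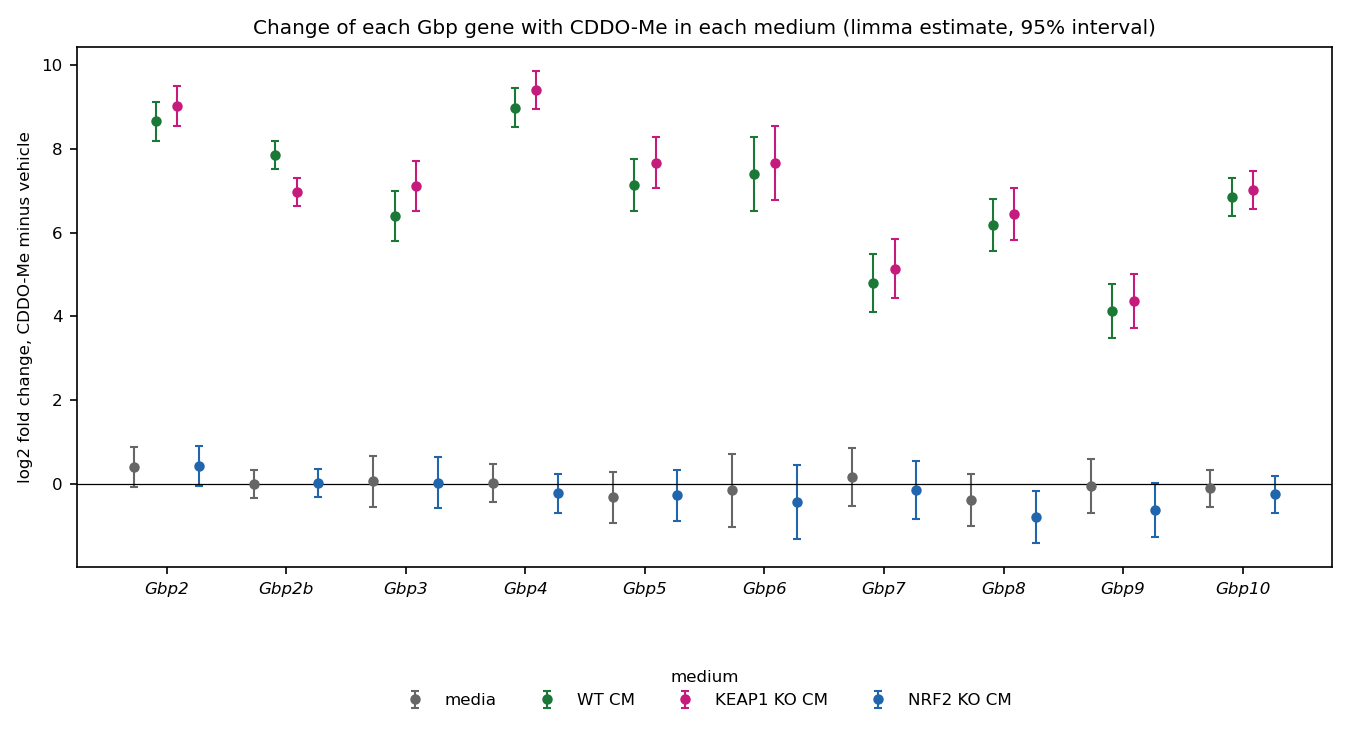
Log2 fold change of each Gbp gene, CDDO-Me minus vehicle, on the log2(TPM + 1) scale for control media in grey, WT CM in green, KEAP1 KO CM in magenta and, in blue, NRF2 KO CM. Points are limma estimates from 3 libraries a group and bars are 95% intervals. With WT CM and KEAP1 KO CM the estimates run from 4.14 to 9.40, and with media and NRF2 KO CM they run from -0.79 to 0.44.

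In control media, the log2 fold changes of the members with CDDO-Me ran from -0.38 to 0.41, with 95% intervals inside -1.03 to 0.88. By limma, 0 of 10 members passed, and 0 of 10 had an unadjusted p under 0.05, while 6.01% of all genes changed. Gbp2b, Gbp4 and Gbp10 were at 0.173 TPM or less in both groups and could hardly pass. Gbp2 was at 12.7, 13.2 and 11.6 TPM with CDDO-Me against 9.03, 9.08 and 9.41 TPM with vehicle. These values did not overlap, but the log2 fold change of 0.41 (SE 0.22, adjusted p = 0.42) missed the threshold. Gbp2 passed in a fit of the compared groups alone (0.43, adjusted p = 0.0159) and with array weights (0.43, adjusted p = 0.0137).

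In NRF2 KO CM, the log2 fold changes ran from -0.79 to 0.44, and the 95% intervals lay inside -1.42 to 0.91. By limma, 0 of 10 members passed, 1 of 10 had an unadjusted p under 0.05, and 9.77% of all genes changed. That member, Gbp8, was at 0.984, 1.35 and 1.37 TPM with CDDO-Me against 2.51, 1.96 and 4.52 TPM with vehicle (log2 fold change -0.79, SE 0.30, adjusted p = 0.113), with no overlap between the groups. Without NRF2 KO CM/vehicle replicate 2, Gbp8 passed (log2 fold change -1.02, adjusted p = 0.0477). Gbp2 was at 16.9, 19.2 and 18.6 TPM with CDDO-Me against 11.8, 11.1 and 17.7 TPM with vehicle (log2 fold change 0.44, SE 0.22, adjusted p = 0.288), and it passed without NRF2 KO CM/vehicle replicate 3 (0.72, adjusted p = 0.0294).

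The dependence of the CDDO-Me effect on the medium was then tested directly, by interaction contrasts. The effect was larger in WT CM than in control media for 7 of 7 members, where 8.3% of all genes had a larger effect, and larger in KEAP1 KO CM than in control media for 7 of 7, where the share was 8.38%. The differences of effects ran from 4.17 (Gbp9) to 8.24 (Gbp2) and from 4.40 (Gbp9) to 8.61 (Gbp2) on the log2 scale. A contrast with NRF2 KO CM in place of control media was added after the values were seen. The effect was larger in WT CM than in NRF2 KO CM for 7 of 7 members, beside 7.61% of all genes, and larger in KEAP1 KO CM than in NRF2 KO CM for 7 of 7, beside 7.47%. Gbp9 and Gbp2 again had the smallest and largest differences of the 7, 4.76 and 8.22 for WT CM and 4.99 and 8.58 for KEAP1 KO CM. The effects in NRF2 KO CM and in control media differed by -0.59 to 0.05. By limma, 0 of 10 members passed for that difference, 0 of 10 had an unadjusted p under 0.05, and 0% of all genes passed, with 374 genes at an unadjusted p under 0.05. All of these contrasts share libraries with each other.

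Nqo1, a classical NRF2 target, rose with CDDO-Me in all 4 media. Nqo1 was at 2.16 to 5.16 TPM in the vehicle libraries. It was at 103.8, 79.0 and 218.5 TPM in media/CDDO-Me and at 156.2, 133.1 and 189.8 TPM in NRF2 KO CM/CDDO-Me, where the GBP genes were low. It was at 41.6, 42.7 and 60.5 TPM in WT CM/CDDO-Me and at 85.8, 83.5 and 90.8 TPM in KEAP1 KO CM/CDDO-Me, where they were high. Of 8 listed NRF2 targets, 8 rose in control media, 7 in WT CM, 8 in KEAP1 KO CM and 8 in NRF2 KO CM, where 3.07%, 13.9%, 14.5% and 4.49% of all genes rose. The exception was Gclc in WT CM (log2 fold change 0.66, adjusted p = 0.0939).

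With CDDO-Me in all groups, WT CM and control media were compared next. Of the members, 7 of 7 were higher in WT CM/CDDO-Me than in media/CDDO-Me, where 13.7% of all genes were higher, and the log2 differences ran from 4.40 to 8.62. KEAP1 KO CM/CDDO-Me likewise exceeded media/CDDO-Me for 7 of 7 members, beside 12.3% of all genes, by 4.44 to 8.59. Against naive media/vehicle BMDMs, 7 of 7 members were higher in WT CM/CDDO-Me and 7 of 7 in KEAP1 KO CM/CDDO-Me, and the share of all genes higher was 13.8% in both. These comparisons use the same CDDO-Me libraries as those above and are no separate evidence.

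In NRF2 KO CM/CDDO-Me BMDMs, the members were at 19.2 TPM or less, far below WT and KEAP1 KO CM/CDDO-Me. The log2 differences of the 7 members from media/CDDO-Me ran from -0.05 to 0.74 (median 0.46, beside 0.00 over all genes). Against media/CDDO-Me, 0 of 10 members passed by limma, 2 of 10 had an unadjusted p under 0.05, and 0.154% of all genes passed. Those members were Gbp2 (log2 difference 0.54, SE 0.22, adjusted p = 0.604) and Gbp7 (0.74, SE 0.33, adjusted p = 0.624), and neither overlapped between the groups. Against media/vehicle, Gbp2 was higher, at 16.9, 19.2 and 18.6 TPM against 9.03, 9.08 and 9.41 TPM, a ratio of means of 1.99 and a log2 difference of 0.95 (SE 0.22, adjusted p = 0.00849). It was 1 of 10 members called, beside 4.58% of all genes higher. With the replicate number as a block, Gbp7 passed too (log2 difference 0.92, adjusted p = 0.00871, against 0.0876 without the block).

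Whether the KEAP1 edit in the cancer cells changed the response was tested between the KEAP1 KO CM and WT CM groups. With CDDO-Me, the family sums overlapped, at 7687, 7161 and 9085 TPM with KEAP1 KO CM and 7604, 6996 and 8975 TPM with WT CM. In each of the 3 same-numbered pairs the sum was higher with KEAP1 KO CM, by 83.0, 165.0 and 110.0 TPM. Gbp3, Gbp4, Gbp5, Gbp6 and Gbp7 were also higher in 3 of 3 pairs, while Gbp2b and Gbp8 were higher in 0 of 3. These directions were not tested, and the share of all genes with 1 direction in every pair was not computed. Of these members, limma called only Gbp2b. With the replicate number as a block, Gbp2b was again the 1 member called. Gbp2b was lower with KEAP1 KO CM, at 0.553 times its mean level with WT CM, and the highest KEAP1 KO CM library, at 153.1 TPM, was below the lowest WT CM library, at 177.3 TPM. Its log2 difference was -0.88 (SE 0.16, adjusted p = 0.0434). Gbp2b was the single gene of those tested that passed in this direction, which is 0.00732% of all genes, and 7 genes passed in either direction. The call depended on the processing, and the adjusted p was 0.607 with a pseudocount of 0.1, 0.0633 without the filter on low values and 0.524 in a fit of the compared groups alone. It was also lost without WT CM/CDDO-Me replicate 1 or 3 (adjusted p = 0.259 and 0.181) and without KEAP1 KO CM/CDDO-Me replicate 1 or 2 (0.297 and 0.151), while the log2 difference stayed between -0.69 and -0.90 in these fits.

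The other 9 members did not pass between KEAP1 KO CM/CDDO-Me and WT CM/CDDO-Me. The 95% interval of the log2 difference was -0.50 to 0.44 for Gbp2 and -0.44 to 0.45 for Gbp10. Gbp4 was at 731.2, 714.9 and 778.1 TPM against 604.2, 606.6 and 703.1 TPM, without overlap, but its log2 difference of 0.21 (SE 0.22, adjusted p = 1) missed the threshold. For the difference of the CDDO-Me effects between KEAP1 KO CM and WT CM, 0 of 10 members passed by limma, 1 of 10 had an unadjusted p under 0.05, and 0% of all genes passed, with 225 genes at an unadjusted p under 0.05. The member was Gbp2b (-0.88, SE 0.22, adjusted p = 1), whose vehicle libraries were at 0 in both media.

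**Figure D3:**
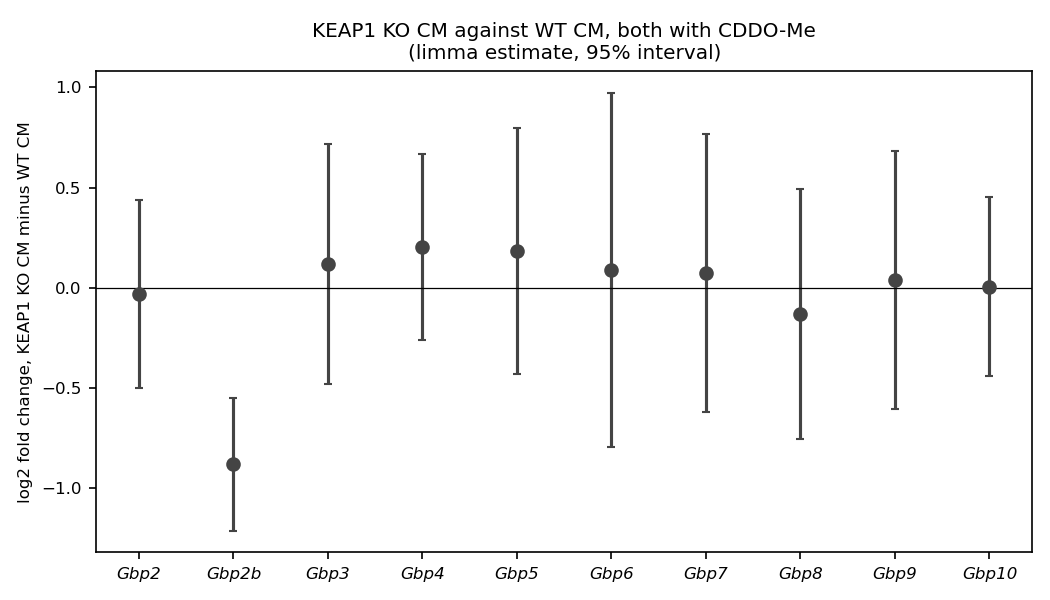
Log2 difference of each Gbp gene between KEAP1 KO CM/CDDO-Me and WT CM/CDDO-Me on the log2(TPM + 1) scale, KEAP1 KO CM minus WT CM. Points are limma estimates from 3 libraries a group and bars are 95% intervals. The interval of Gbp2b, from -1.21 to -0.55, lies below 0, and those of the other 9 genes include 0.

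The order of the members by level changed along with the rise. In WT CM/CDDO-Me the order was Gbp2, Gbp4, Gbp3, Gbp6, Gbp5, Gbp8, Gbp2b, Gbp7, Gbp9 and Gbp10. Neighbours from Gbp4 to Gbp5, and from Gbp8 to Gbp7, overlapped between libraries, while the other neighbours did not. In KEAP1 KO CM/CDDO-Me, Gbp2b moved to the last place, where it overlapped Gbp10. In media/vehicle the order was Gbp2, Gbp9, Gbp3, Gbp7, Gbp8, Gbp5, Gbp6, Gbp4, Gbp10 and Gbp2b. Gbp2 made up 56.7% to 63.2% of the family's TPM in the 6 libraries of WT and KEAP1 KO CM/CDDO-Me and 20.7% to 44.9% in the other 18. Gbp9 made up 1.8% to 1.99% and 11.8% to 27.4%.

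**Figure D4:**
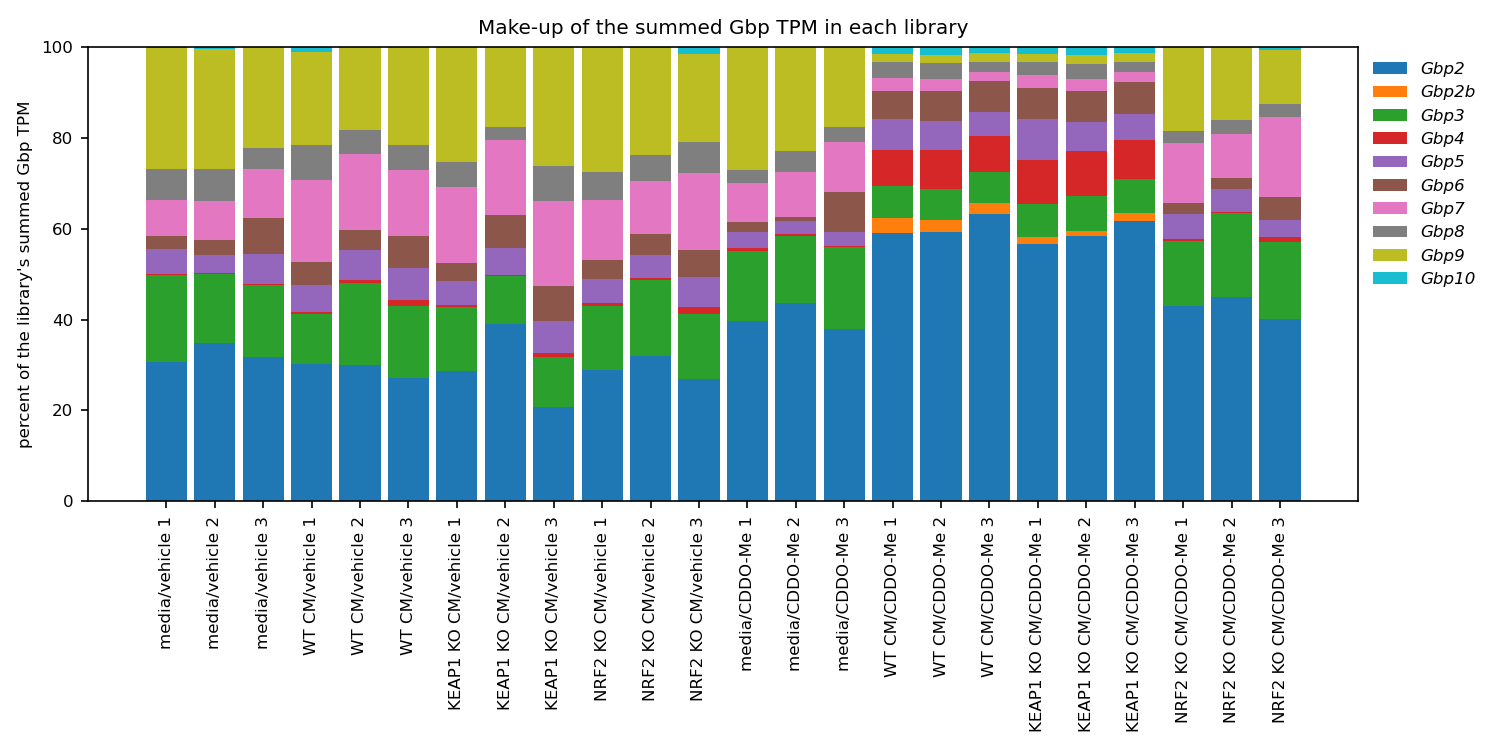
Share of each Gbp gene in the summed TPM of the 10 genes, as stacked bars in percent, for each of the 24 libraries, with the replicate number after the group. Gbp2 fills 56.7% to 63.2% of the bars of WT and KEAP1 KO CM/CDDO-Me, and Gbp9 fills 11.8% to 27.4% of the bars of the other groups.

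Without CDDO-Me, few members passed between tumor CM and control media. For the 7 members that passed the filter in the other libraries alone, the log2 fold changes with WT CM ran from 0.23 to 1.14 (median 0.40). With KEAP1 KO CM they ran from -0.25 to 0.87 (median 0.04), and with NRF2 KO CM from 0.48 to 1.06 (median 0.54). The medians over all genes were 0.008, 0.00 and 0.006. Of the members, 1 of 10 rose with WT CM, beside 4.33% of all genes. Gbp7 was at 6.36, 4.74 and 9.45 TPM in WT CM/vehicle against 2.35, 2.22 and 3.20 TPM in media/vehicle, without overlap, a ratio of means of 2.64 (log2 fold change 1.14, SE 0.33, adjusted p = 0.0409). With the replicate number as a block Gbp6 passed as well (log2 fold change 0.58, adjusted p = 0.0482, against 0.571 without the block). The call of Gbp7 was lost without any 1 of the media/vehicle replicates (adjusted p = 0.134, 0.142 and 0.0592) and without WT CM/vehicle replicate 1 or 3 (0.0981 and 0.199).

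With KEAP1 KO CM, 0 of 10 members passed by limma and 1 of 10 had an unadjusted p under 0.05, beside 7.96% of all genes changed. That member was Gbp7, at 4.90, 4.05 and 8.56 TPM (log2 fold change 0.87, SE 0.33, adjusted p = 0.132), and it passed with array weights (0.78, adjusted p = 0.000756). Gbp7 also passed with the replicate number as a block (0.87, adjusted p = 0.0152). With NRF2 KO CM, 0 of 10 passed and 2 of 10 had an unadjusted p under 0.05, beside 0.00732% of all genes changed, and these were Gbp2 (log2 fold change 0.51, SE 0.22, adjusted p = 0.406) and Gbp7, at 5.46, 4.05 and 11.1 TPM (1.06, SE 0.33, adjusted p = 0.395). Gbp7 thus lay above all media/vehicle libraries in each tumor CM.

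No member passed between KEAP1 KO CM/vehicle and WT CM/vehicle (0 of 10 at an unadjusted p under 0.05, log2 differences from -0.59 to 0.00). There 0% of all genes passed by limma and 341 genes had an unadjusted p under 0.05. The 7 members that passed the filter in the other libraries alone all had lower estimates with KEAP1 KO CM, from -0.59 to -0.19. Their median was -0.35, beside -0.008 over all genes. No member passed between WT CM/vehicle and NRF2 KO CM/vehicle either (0 of 10 at an unadjusted p under 0.05, log2 differences from -0.31 to 0.08). There 10.7% of all genes differed, and 3721 genes had an unadjusted p under 0.05. Gbp2b was at 0 throughout the tumor CM/vehicle groups, and Gbp10 throughout KEAP1 KO CM/vehicle, so they had no highest library there. Replicate 3 was the highest library of its group for 8, 7 and 9 of the 10 members in WT CM/vehicle, KEAP1 KO CM/vehicle and NRF2 KO CM/vehicle. The NRF2 KO CM/vehicle library among these is the 1 with the fewest genes above 0, and the part of that in the levels was not tested.

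The genes of interferon signaling were described from a list of 14 receptors, kinases, transcription factors and inhibitors. With CDDO-Me in WT CM, the list had a median log2 fold change of 0.76 beside -0.03 over all genes. There 9 of 14 rose, beside 13.9% of all genes, and 0 fell. Transcription factors were among the genes that rose. Stat2 rose by 1.78 (adjusted p = 2.84e-10), Irf1 by 3.67 (adjusted p = 8.51e-10) and Irf8, a partner of IRF1 in macrophages, by 2.34 (adjusted p = 1.29e-08). The mean of Irf1 moved from 81.0 to 930.0 TPM and that of Irf8 from 99.7 to 471.4 TPM. With KEAP1 KO CM 9 of 14 also rose, beside 14.5% of all genes. Stat2 rose by 1.74 (adjusted p = 3.99e-10), Irf1 by 3.86 (adjusted p = 4.3e-10) and Irf8 by 2.23 (adjusted p = 2.67e-08). The receptor genes Ifngr1, Ifngr2, Ifnar1 and Ifnar2 did not pass in WT CM, with log2 fold changes of -0.41, 0.06, -0.18 and 0.37. By limma 0 of 14 passed in control media and 0 of 14 in NRF2 KO CM, where 6.01% and 9.77% of all genes changed.

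Some interferon pathway genes differed already between vehicle groups. Stat2 was higher in WT CM/vehicle than in media/vehicle, at 47.6, 37.7 and 48.6 TPM against 26.6, 26.7 and 27.0 TPM (log2 fold change 0.77, adjusted p = 0.000153). Irf8 was lower in KEAP1 KO CM/vehicle, at 92.1, 84.0 and 95.6 TPM against 159.2, 142.2 and 151.8 TPM (-0.74, adjusted p = 0.0209).

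The immunity-related GTPases, a related family that acts with the GBPs on vacuoles, rose with them. Of 7 genes, 7 rose in WT CM and 7 in KEAP1 KO CM, beside 13.9% and 14.5% of all genes. Their median log2 fold changes were 6.56 and 6.91. Iigp1 was at 1.97, 1.76 and 2.69 TPM in WT CM/vehicle and at 1647, 1688 and 1880 TPM in WT CM/CDDO-Me (log2 fold change 9.24, adjusted p = 5.86e-19). Igtp rose by 6.56 (adjusted p = 1.27e-17), Irgm1 by 4.77 (adjusted p = 2.53e-17) and Irgm2 by 4.40 (adjusted p = 1.02e-16). In control media and in NRF2 KO CM 0 of 7 rose and 2 of 7 fell, where 2.94% and 5.28% of all genes fell. These were Tgtp2, which fell by 1.01 (adjusted p = 0.0118) and by 1.52 (adjusted p = 0.000202), and Irgm1, which fell by 0.39 (adjusted p = 0.0355) and by 0.37 (adjusted p = 0.0343).

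Among 8 genes of the inflammasomes that GBPs serve, 6 rose with CDDO-Me in WT CM and 7 in KEAP1 KO CM. Of all genes, 13.9% and 14.5% rose there. In WT CM, Nlrp3, the sensor, rose by 1.86 (adjusted p = 1.68e-06) and Gsdmd, the pore-forming effector, by 1.37 (adjusted p = 1.43e-05). Casp1 rose by 1.62 (adjusted p = 6.87e-05), and Casp4, also known as caspase-11, by 1.64 (adjusted p = 0.000718). In KEAP1 KO CM these rose by 2.04, 1.58, 1.92 and 2.22, with adjusted p-values of 4.8e-07, 2.43e-06, 9.02e-06 and 2.68e-05. In control media 0 of 8 passed by limma, beside 6.01% of all genes, and in NRF2 KO CM 1 of 8 rose, beside 4.49%. That gene was Il1b, the cytokine that inflammasomes mature, with a log2 fold change of 2.37 (adjusted p = 0.0343) in NRF2 KO CM. Il1b rose by 4.33 (95% interval 2.88 to 5.77, adjusted p = 5.68e-05) in KEAP1 KO CM, and in WT CM its log2 fold change was 1.84 (adjusted p = 0.0548). Of 13 genes of autophagy conjugation and prenylation, which place GBPs on membranes, 0 passed in WT CM by limma and 1 fell in KEAP1 KO CM, where 14.2% of all genes fell. That gene was Fntb, a farnesyltransferase subunit, which fell by 0.36 (adjusted p = 0.0212). In WT CM, Pggt1b had a log2 fold change of 0.33 (adjusted p = 0.106), Fnta of -0.34 (adjusted p = 0.122), Fntb of -0.23 (adjusted p = 0.163) and Atg12 of -0.25 (adjusted p = 0.172).

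**Figure D5:**
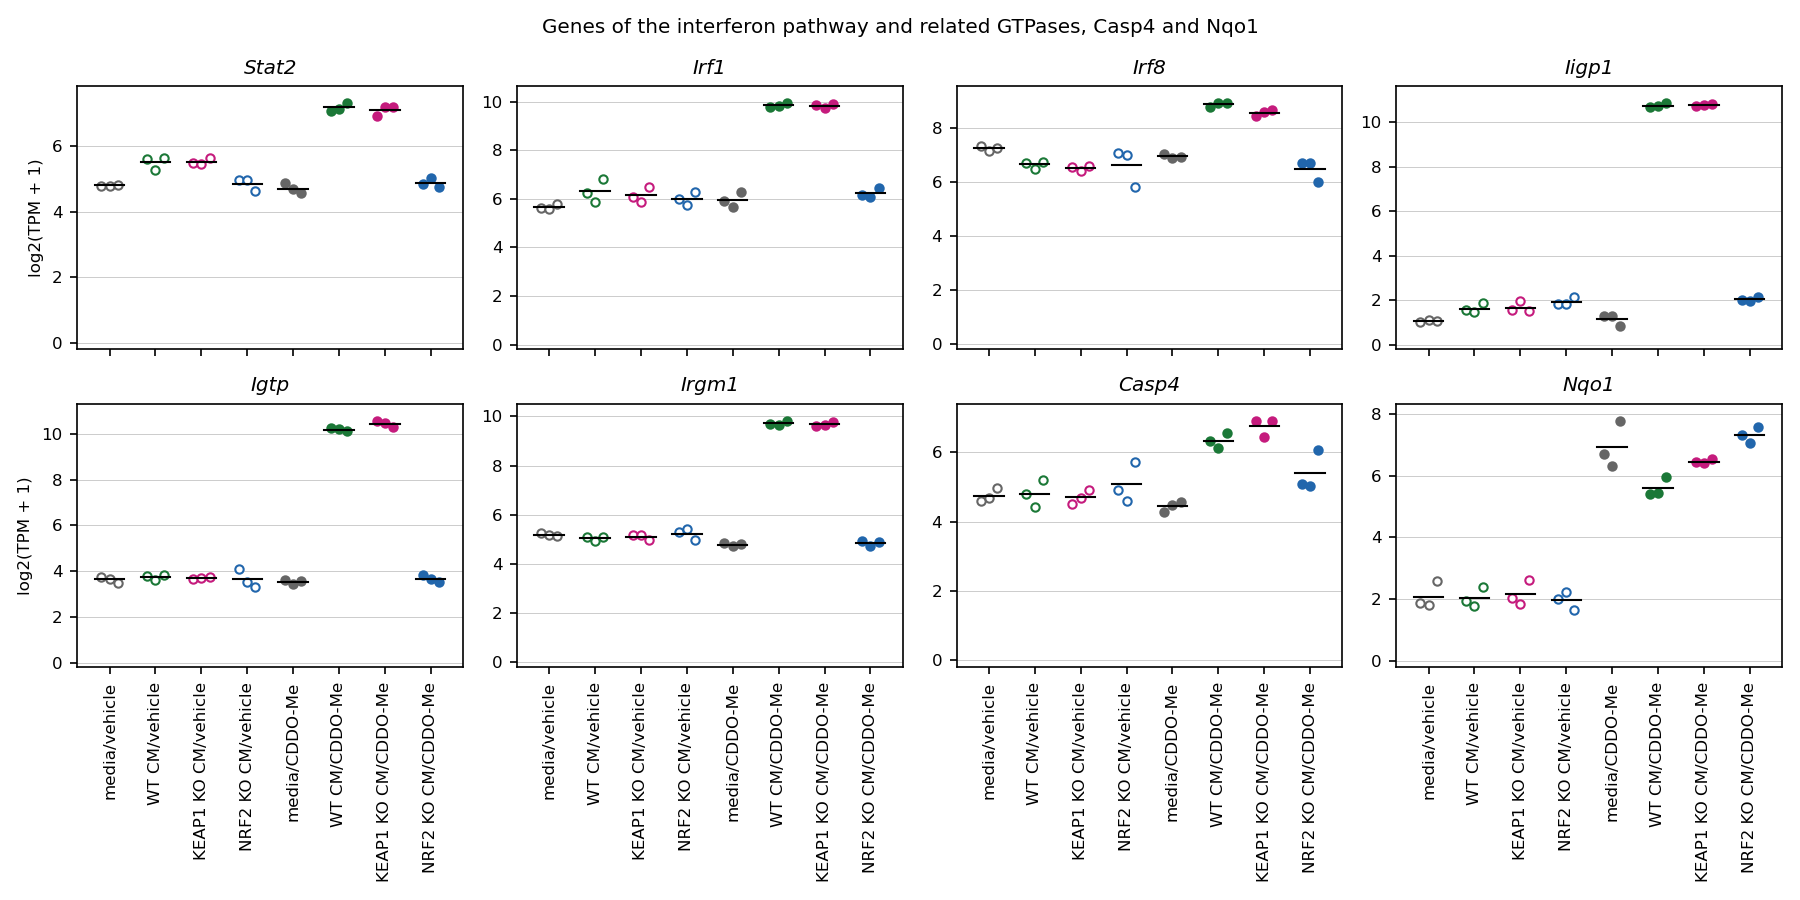
Levels of Stat2, Irf1, Irf8, Iigp1, Igtp, Irgm1, Casp4 and Nqo1 as log2(TPM + 1) in the 24 libraries, with the 8 groups on the horizontal axis and vertical scales that differ between panels. Open points are vehicle libraries, filled points CDDO-Me libraries, colours mark the media as in the plot of Gbp levels, and black lines are means of 3 libraries. Iigp1 is at 1647 to 1880 TPM in WT and KEAP1 KO CM/CDDO-Me and at most 3.53 TPM elsewhere, whereas Nqo1 is high in all 4 CDDO-Me groups.

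Across the 24 libraries, the log2 values of member pairs had Pearson correlations from 0.972 to 0.998 over 45 pairs. The libraries fall into a high and a low cluster, so these values describe the separation of the clusters. Within the 6 libraries of WT and KEAP1 KO CM/CDDO-Me the correlations ran from -0.888 to 0.983 with a median of 0.268, and within the other 18 from -0.172 to 0.853 with a median of 0.573. Outside the family, genes among those whose pattern over 24 libraries was most like the mean of the standardized members were Irgm2 (r = 0.997), Iigp1 (r = 0.996), Dtx3l (r = 0.995), a ubiquitin ligase, and Igtp (r = 0.995). In total 66 genes outside the family had an r over 0.98. Dtx3l was at 84.5 to 99.3 TPM in the 6 libraries and at 12.9 to 20.6 TPM in the other 18.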

How the data were processed

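Poly-A RNA libraries were sequenced by Novogene, and the authors quantified reads with Kallisto on GRCm39. The deposited values were treated as length-scaled TPM per gene name, since each library sums to the same total, although the table is named as counts. No read counts were given. The paper states only an average depth, so the depth of each library is unknown, and intervals that would need it are left out. Groups and replicate numbers came from the labels. All 24 columns were mapped, and 1 row without a gene name (0.0199% to 0.0635% of TPM) was left out.

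TPM of genes above 1 in at least 3 libraries (13661 genes) were scaled by unweighted trimmed means of M values (M trimmed by 30%, A by 5%). The log2(TPM + 1) values were fitted with limma 3.58.1 (R 4.3.3, eBayes with trend, 8 groups, 16 residual degrees of freedom). Tests were two-sided. P-values were adjusted by Benjamini-Hochberg over all genes and compared with 0.05. Labels call the 3 samples of a group independent without naming separate animals, so p-values measure the spread between these samples. Other scalings, filters, pseudocounts, weights and sample sets were tried for each comparison. The 2 contrasts of the CDDO-Me effect with NRF2 KO CM were added after the values were seen.

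The members and lists were chosen with earlier results of these data known. Named genes were the 10 members, up to 4 genes of each fixed list with the smallest adjusted p in WT CM, with Irf1, Irf8 and Nqo1, and the genes most like the family. A gene that this rule also names is not reported here, but list counts include it. Receptor genes, Gclc, Tgtp2, Il1b, Xcr1, Zbtb46 and Pdgfra were named after their values were seen. Irgb10 was matched as Gm12250 through RefSeq synonyms.

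Labels do not say what a replicate number marks. Deviations from the group means correlated above 0.1 for 71 of the 84 same-number pairs (0.0221 to 0.717). On average, 22 of the 24 libraries were closer to libraries of their own number. The cutoff of 0.1 was a choice, and KEAP1 KO CM/vehicle against media/vehicle missed it with a lowest pair of 0.097. Its blocked value is given as well. Where every same-number pair of a comparison exceeded 0.1 (as for WT CM/vehicle against media/vehicle, 0.145 to 0.387, and NRF2 KO CM/CDDO-Me against media/vehicle, 0.16 to 0.275), the numbers were taken to pair the samples, and blocked values are given where a call changed.

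Transcript words of 31 bases came from GENCODE vM39, and promoters from RefSeq. The fit was tested on simulated data. Figures used Python 3.11.15 and matplotlib 3.10.9.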

Additional observations from a re-analysis of the deposited data

Results flagged for a closer look

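In tests of the difference itself, the effect of CDDO-Me differed between media for the 7 members that passed the filter on low values without the CDDO-Me libraries of WT CM and KEAP1 KO CM. Gbp2b, Gbp4 and Gbp10 passed it only through those libraries and had to differ, so their values are a description. Values are differences of log2 fold changes on the log2(TPM + 1) scale, and those of Gbp2b and Gbp10 depend on the pseudocount, since libraries of these genes were listed at 0.

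For WT CM against control media the differences were 8.24 for Gbp2, 7.86 for Gbp2b, 6.34 for Gbp3, 8.96 for Gbp4, 7.46 for Gbp5, 7.54 for Gbp6, 4.62 for Gbp7, 6.56 for Gbp8, 4.17 for Gbp9 and 6.96 for Gbp10. For KEAP1 KO CM against control media they were 8.61 for Gbp2, 6.98 for Gbp2b, 7.04 for Gbp3, 9.37 for Gbp4, 7.99 for Gbp5, 7.82 for Gbp6, 4.96 for Gbp7, 6.83 for Gbp8, 4.40 for Gbp9 and 7.12 for Gbp10.

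For WT CM against NRF2 KO CM, added after the values were seen, they were 8.22 for Gbp2, 7.83 for Gbp2b, 6.37 for Gbp3, 9.20 for Gbp4, 7.41 for Gbp5, 7.83 for Gbp6, 4.94 for Gbp7, 6.97 for Gbp8, 4.76 for Gbp9 and 7.10 for Gbp10. For KEAP1 KO CM against NRF2 KO CM they were 8.58 for Gbp2, 6.95 for Gbp2b, 7.07 for Gbp3, 9.62 for Gbp4, 7.94 for Gbp5, 8.11 for Gbp6, 5.28 for Gbp7, 7.24 for Gbp8, 4.99 for Gbp9 and 7.26 for Gbp10. The 4 contrasts share libraries, so they are not separate evidence. Dendritic cell markers summed to 2.59 to 5.21 TPM in WT and KEAP1 KO CM/CDDO-Me and to 0.679 to 1.63 TPM elsewhere. Of this list, the mean of Xcr1 was higher with CDDO-Me in those media, while that of Zbtb46 was lower. Fibroblast marker sums overlapped between these groups and the rest. With CDDO-Me, the estimate of every listed fibroblast marker was below 0 in each tumor CM. Of that list, only Pdgfra passed by limma in WT CM (log2 fold change -1.23, adjusted p = 0.0177) and in KEAP1 KO CM (-1.48, adjusted p = 0.00463). The part of either marker list in these differences was not tested.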

How the results depend on the processing

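In 10 contrasts, WT or KEAP1 KO CM/CDDO-Me was compared with lower groups, or the CDDO-Me effect was compared between media. Each of the 1162 alternative values of the 7 members was called higher there. These log2 fold changes, or differences of them, ran from 3.84 to 9.30, and the fits share libraries. Gbp2 in NRF2 KO CM/CDDO-Me against media/vehicle was also called under every alternative run. Other calls depended on the processing. With array weights, 1 member was called for KEAP1 KO CM/vehicle against media/vehicle (Gbp7), 1 for KEAP1 KO CM/vehicle against WT CM/vehicle (Gbp10), 1 for CDDO-Me in media (Gbp2), 2 for CDDO-Me in NRF2 KO CM (Gbp2 and Gbp8), 1 for the effect in KEAP1 KO CM against WT CM (Gbp2b), 3 for NRF2 KO CM/CDDO-Me against media/CDDO-Me (Gbp2, Gbp5 and Gbp7) and 2 against media/vehicle (Gbp2 and Gbp7). With the replicate block, the members called were 2 for WT CM/vehicle, 1 for KEAP1 KO CM/vehicle (Gbp7) and 2 for NRF2 KO CM/CDDO-Me, each against media/vehicle, and no other call changed. In a fit of the compared groups, 1 member was called for CDDO-Me in media (Gbp2, adjusted p = 0.0159) and 0 for KEAP1 KO CM/CDDO-Me against WT CM/CDDO-Me, where 0 were also called with a pseudocount of 0.1 and without the filter. Without the filter, 0 were called for WT CM/vehicle against media/vehicle. With each library left out in turn, the number called ranged from 0 to 1 for WT CM/vehicle against media/vehicle, for KEAP1 KO CM/CDDO-Me against WT CM/CDDO-Me and for CDDO-Me in NRF2 KO CM, and from 1 to 2 for NRF2 KO CM/CDDO-Me against media/vehicle (2 without NRF2 KO CM/CDDO-Me replicate 2, with Gbp7 at an adjusted p of 0.0497). Leaving out both NRF2 KO CM replicate 3 libraries changed no number of members called, but moved the share of all genes called by over 1.5 times in 4 of 8 comparisons. Array weights did so in 22 of 22, the compared groups alone in 13, the replicate block in 8, and leaving out 1 library in 26 of 168 fits. The cause of these changes was not tested. Without scaling, the median log2 value of all genes shifted to between -0.179 and 0.0577. Over all genes, the share called was up to 28.8% as reported and up to 55.2% with array weights, up to 42.9% with the compared groups alone and up to 35.3% with the replicate block. The unknown depth of each library limits what can be said of genes near 0 TPM, such as Gbp2b, Gbp4 and Gbp10 in the vehicle groups.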

Other observations

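The values below were looked up after the levels of the members had been seen. Gbp11, a further gene of the chromosome 5 cluster that was not among the members, was at 45.3, 36.0 and 80.4 TPM in WT CM/CDDO-Me and at 46.2, 49.5 and 94.4 TPM in KEAP1 KO CM/CDDO-Me. Its highest value in the other groups was 0.768 TPM, in WT CM/vehicle replicate 3, and it was listed at 0 in all media/CDDO-Me and NRF2 KO CM/CDDO-Me libraries.

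Of 20 interferon genes of the type I, II and III families in the table, 16 were listed at 0 in every library, and the highest value of any was 0.184 TPM. Ifng, which encodes interferon gamma, was above 0 in 1 of the 24 libraries, at 0.0637 TPM, and Ifnb1 in 1, at 0.131 TPM. The libraries hold RNA of the macrophage cultures, and interferon from the media or at earlier times was not measured.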
